A study of Mus musculus with 8 samples.

Results

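The genes described here are 10 regulators of muscle protein breakdown and muscle size: the ubiquitin ligase genes Fbxo32, Trim63, Trim55, Trim54, Fbxo30 and Fbxo31, the transcription factor genes Foxo1, Foxo3 and Foxo4, and Mstn, which encodes the secreted growth inhibitor myostatin. They were taken by the gene symbol of the array's annotation, from 22180 genes with a probe set of their own, and each gene was read from its brightest probe set by mean over the arrays. All 10 were found, and 9 passed the filter on low signal (a mean of at least 3.80 on the log2 scale); Mstn did not.

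In striated muscle, ubiquitin ligases attach ubiquitin chains to chosen proteins, which the proteasome then degrades. FoxO factors switch on the ligase genes Fbxo32 and Trim63 when insulin and AKT signalling is low, because AKT phosphorylates FoxO proteins and keeps them out of the nucleus. Myostatin acts through activin type II receptors and SMAD proteins, lowers AKT activity in skeletal muscle and so favours FoxO. In the heart the same ligases turn over sarcomere and signalling proteins, and loss of them alters growth under load in mice.

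Heart RNA was measured on 4 Affymetrix arrays of the genotype CITED4 knockout (C4KO_TAC) and 4 of floxed controls (F/FCtr_TAC), all from male C57Bl6N mice. Each array is called a heart here, though no label says that it is a separate animal. Every heart was taken 1 week after TAC (transverse aortic constriction), in which the aorta is tied narrower so that the ventricle pumps against a higher pressure. Both groups share this operation, and no unoperated heart was compared. CITED4 partners with the coactivators CBP and p300 in gene regulation. The labels used here name no Cre driver, no Cre status of the controls, no age and no array batch, so an effect of Cre cannot be told apart from that of the deletion.

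The targeted gene was lower in each knockout heart. Cited4 had 5.26, 5.15, 4.83 and 5.02 in knockout hearts 1 to 4 and 5.89, 5.76, 6.05 and 6.22 in control hearts 1 to 4 (log2 signal), a difference of -0.91 ± 0.12 (log2, standard error, SE). The limma adjusted p was 0.277, and an exact two-sided permutation test gave 0.0286, the smallest p that 4 against 4 arrays allow. Over all 15086 genes tested, limma called 0 at an adjusted p of 0.05 (0% called), with 1697 genes at an unadjusted p under 0.05 (11.2%). Nothing in the labels says that each array is a separate animal, so p-values reflect only how far these samples scatter, which may be technical, and with so few arrays each value has limited precision.

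Some arrays stood apart in markers of other cells. All 12 ventricular cardiomyocyte markers passed the filter, and 10 of them were lower in the knockout, with summed linear signals of 41976 to 48314 in knockout and 47664 to 49993 in control hearts. Activated fibroblast markers were higher for 12 of 13 genes (sums of 8175 to 17747 in knockout and 5925 to 11545 in control hearts), and were highest in knockout hearts 1 and 4. Atrial markers were higher for 6 of 6 tested genes (sums of 10069.7 to 11474 in knockout and 9289 to 10068 in control hearts). Without knockout heart 2, 4 were higher and 2 lower, and their median difference fell from 0.54 to 0.15 (log2). Nppa, at 13.16 to 13.34 over the hearts (log2 signal), made up most of the sums, so these say little of the other atrial markers. The mean log2 deviation of the atrial markers was 1.76 in knockout heart 2, and lay between -0.48 and 0.13 in the other 7 hearts. In whole hearts, fewer cells of a type and less RNA per cell cannot be told apart, and the part of these markers in the values below was not tested.

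Of the 9 genes tested, 7 were lower and 2 higher in the knockout, with a median difference of -0.13 (log2). Over all genes tested 48.8% were lower, 51.2% were higher and the median was 0.0038. None of the 9 passed at an adjusted p of 0.05 (0 called, where 0% of all genes were). Fbxo31 was the 1 gene of the 9 whose groups did not overlap. Among all genes, 5.23% had no overlap, 2.90% with lower and 2.33% with higher knockout values, and a single gene is too few to read against these shares. The median was -0.07 without knockout heart 3. Without knockout hearts 1 and 4 together 8 of the 9 were lower (median -0.08).

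**Figure D1:**
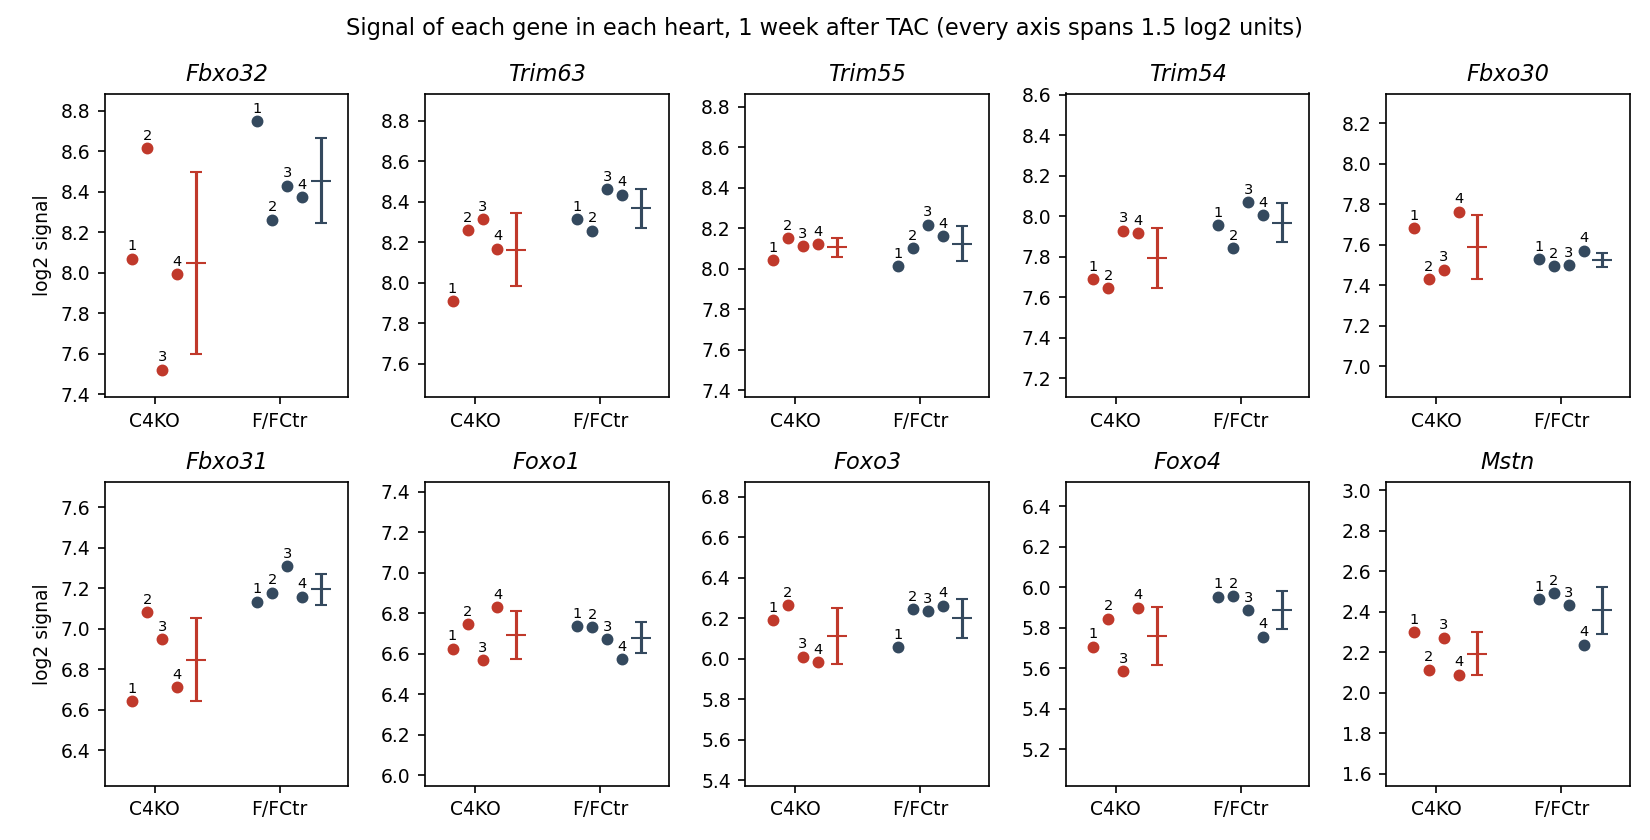
Log2 signal of the 10 genes in each heart, with knockout hearts (C4KO, red) left of control hearts (F/FCtr, dark blue); digits give the replicate, and the bar beside each group is its mean ± SD (n = 4). Every panel spans the same height in log2 units around its own midpoint, Fbxo32 has the widest spread, from 7.52 to 8.61 in knockout hearts, and Fbxo31 alone has no overlap between the groups.

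Fbxo32 encodes atrogin-1, the F-box protein that brings substrates such as calcineurin to an SCF ubiquitin ligase, and affects cardiac growth under load in mice. It had 8.07, 8.61, 7.52 and 7.99 in knockout hearts 1 to 4, and 8.75, 8.26, 8.43 and 8.37 in control hearts 1 to 4 (log2 signal). Knockout hearts 1, 3 and 4 lay below every control heart, whereas knockout heart 2, the one with high atrial markers, lay above 3 of the 4 controls. The means were 8.05 ± 0.45 in knockout and 8.45 ± 0.21 in control hearts (SD, n = 4 each), a difference of -0.40 ± 0.20 (log2, SE; 95% interval -0.85 to 0.04), or 75.6% of the control signal.

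This difference did not pass (limma adjusted p = 0.476; exact permutation p = 0.143). A difference at least as large in either direction was seen in 3.51% of all genes tested. The spread between hearts of the same group was wide for this gene: 96.2% of tested genes had a smaller standard deviation within groups. Single hearts moved the value, to -0.59 without knockout heart 2 (adjusted p = 0.193) and to -0.23 without knockout heart 3 (adjusted p = 0.569).

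**Figure D2:**
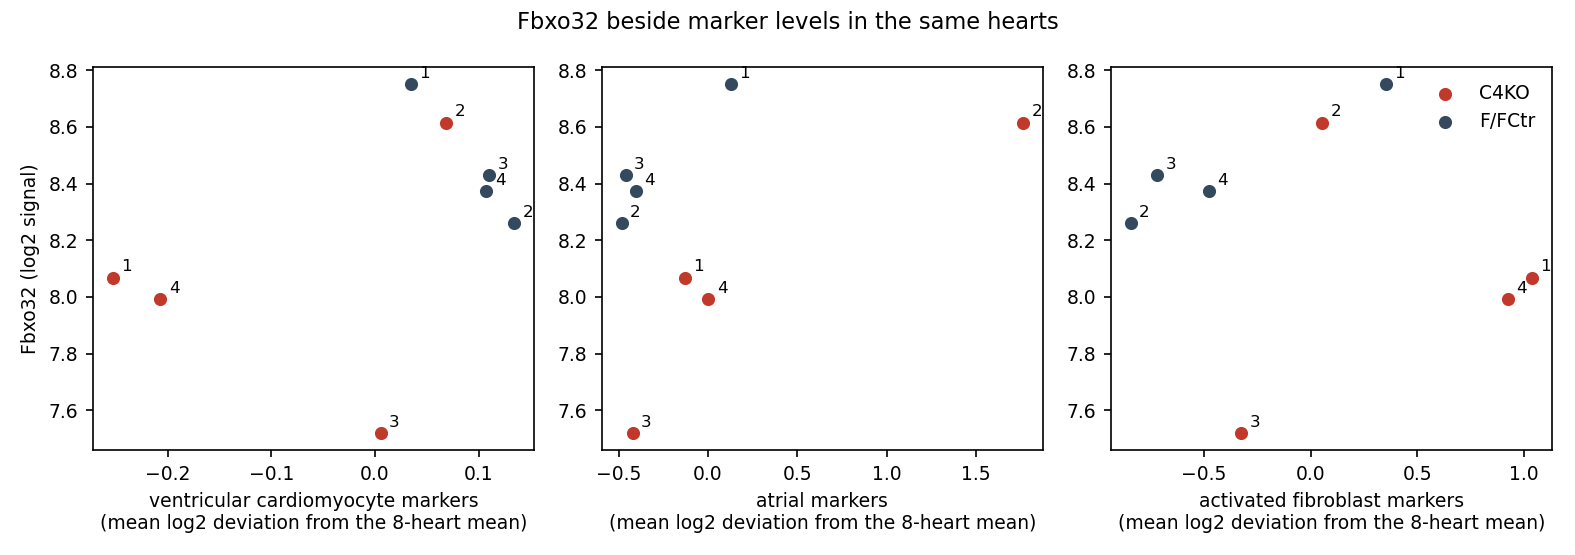
Fbxo32 (log2 signal, vertical axis) against the mean log2 deviation of ventricular, atrial and activated fibroblast markers from their mean over the 8 hearts (horizontal axes); digits give the replicate, red points are knockout and dark blue points control hearts. Knockout heart 2 (8.61) lies apart in atrial markers (1.76), and knockout heart 3, the lowest for Fbxo32 (7.52), has marker levels of 0.01, -0.42 and -0.33 in the order of the panels.

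Trim63 encodes MuRF1, a RING-finger ligase of the sarcomere whose known substrates include troponin I and myosin heavy chains. Its signal was 7.91, 8.26, 8.32 and 8.17 in knockout hearts 1 to 4, and 8.32, 8.26, 8.46 and 8.44 in control hearts 1 to 4 (log2). Knockout hearts 1 and 4 lay below every control heart, and knockout hearts 2 and 3 lay within the control range. The means of 8.16 ± 0.18 in knockout and 8.37 ± 0.10 in control hearts (SD, n = 4 each) differed by -0.20 ± 0.10 (log2, SE; 95% interval -0.43 to 0.02), which did not pass (limma adjusted p = 0.473; exact permutation p = 0.114). The difference was -0.12 without knockout heart 1, and -0.08 without knockout hearts 1 and 4, which were also the hearts with the lowest ventricular marker levels.

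The sequence before the Trim63 start is shown because Trim63 is a textbook FoxO target. The 250 bases before the start in the RefSeq table (GRCm38.p6, chr4:134314870-134315119, plus strand) hold, in capitals and in this order, a FoxO element, an E-box and a TATA element.
Trim63: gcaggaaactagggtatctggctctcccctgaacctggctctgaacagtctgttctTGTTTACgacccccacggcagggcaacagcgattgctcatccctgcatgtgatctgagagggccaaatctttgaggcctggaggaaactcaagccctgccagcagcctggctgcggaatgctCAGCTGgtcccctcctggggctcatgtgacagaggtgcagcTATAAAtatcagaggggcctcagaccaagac
The FoxO element GTAAACA, searched on both strands and read here as its reverse complement TGTTTAC, begins 194 bases before the start. It occurs in 3.17% of all 32851 RefSeq windows of the same length. The E-box CAGCTG, a palindrome, begins 72 bases before the start and occurs in 13% of windows. The TATA element TATAAA (either strand) begins 31 bases before the start and occurs in 12.4%. None of these motifs overlaps another here, and a match of letters is a description, not a measured binding site.

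Trim54 and Trim55 encode MuRF3 and MuRF2, relatives of MuRF1 that bind microtubules and the sarcomere. Trim54 had 7.69, 7.64, 7.93 and 7.92 in knockout hearts 1 to 4, and 7.96, 7.84, 8.07 and 8.00 in control hearts 1 to 4 (log2 signal). Knockout hearts 1 and 2 lay below every control, and knockout hearts 3 and 4 lay within the control range. The difference was -0.17 ± 0.09 (log2, SE; 95% interval -0.38 to 0.03; limma adjusted p = 0.497; exact permutation p = 0.114). A second, dimmer Trim54 probe set averaged 4.44 ± 0.09 in knockout and 4.44 ± 0.16 in control hearts (SD), a difference of 0.01 ± 0.10 (SE), and the mean of both probe sets differed by -0.08.

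Trim55 was the steadiest of the ligase genes. It had 8.04, 8.15, 8.11 and 8.12 in knockout hearts 1 to 4, and 8.01, 8.10, 8.22 and 8.16 in control hearts 1 to 4 (log2 signal). All 4 knockout values lay inside the control range. The difference was -0.02 ± 0.07 (log2, SE; limma adjusted p = 0.941; exact permutation p = 0.743), with a 95% interval of -0.18 to 0.15 that bounds the difference these hearts allow.

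Fbxo31 encodes the F-box subunit of an SCF ligase that targets cyclin D1 after DNA damage. It had 6.64, 7.08, 6.95 and 6.71 in knockout hearts 1 to 4, and 7.13, 7.18, 7.31 and 7.16 in control hearts 1 to 4 (log2 signal). Each knockout heart lay below each control heart, though knockout heart 2 was within 0.06 of the lowest control value. The means were 6.85 ± 0.21 in knockout and 7.19 ± 0.08 in control hearts (SD, n = 4 each), a difference of -0.35 ± 0.11 (log2, SE; 95% interval -0.58 to -0.11), or 78.6% of the control signal.

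The exact permutation test of Fbxo31 gave p = 0.0286, its smallest possible value, and limma an unadjusted p of 0.00805, with an adjusted p of 0.421 that did not pass. It was the only one of the 9 tested genes at an unadjusted p under 0.05, where 5.61% of all genes were lower and 5.64% higher at that threshold. Without knockout hearts 1 and 4, which were the lowest for Fbxo31 and had the highest activated fibroblast levels, the difference was -0.18.

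The Fbxo31 upstream sequence is shown because this was the gene whose groups did not overlap. The 250 bases before its start (RefSeq, GRCm38.p6, chr8:121578807-121579056, minus strand, read 5′ to 3′ along the gene) carry GC boxes, GGGCGG, in capitals.
Fbxo31: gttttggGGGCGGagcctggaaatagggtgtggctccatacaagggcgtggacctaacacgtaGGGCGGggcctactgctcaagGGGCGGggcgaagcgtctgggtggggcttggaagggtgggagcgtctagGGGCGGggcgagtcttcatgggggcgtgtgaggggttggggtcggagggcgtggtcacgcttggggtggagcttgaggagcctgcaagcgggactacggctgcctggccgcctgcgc
The window holds 4 GC boxes, where 32.7% of all windows hold at least 1 on either strand. The FoxO, E-box and TATA letters above are not in it.

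Fbxo30 encodes MUSA1, an F-box ligase subunit that is induced in atrophying skeletal muscle of mice. It had 7.68, 7.43, 7.48 and 7.76 in knockout hearts 1 to 4, and 7.53, 7.49, 7.50 and 7.57 in control hearts 1 to 4 (log2 signal). The control hearts spanned 0.08 log2 units, and the knockout hearts lay on both sides of them, with hearts 1 and 4 above and hearts 2 and 3 below. The difference was 0.07 ± 0.09 (log2, SE; 95% interval -0.13 to 0.26; limma adjusted p = 0.803; exact permutation p = 0.486). It was 0.007 without knockout heart 4, 0.12 without knockout heart 2, 0.10 without knockout heart 3, 0.03 without knockout heart 1, and -0.07 without hearts 1 and 4 together.

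**Figure D3:**
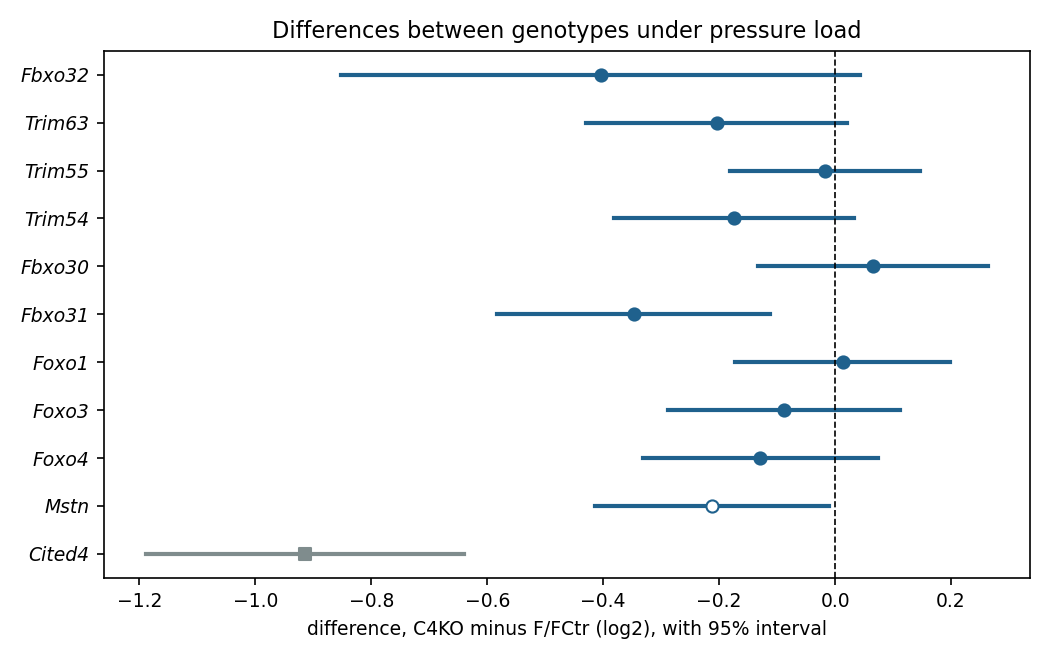
Difference between knockout and control hearts (C4KO minus F/FCtr, log2; horizontal axis) for each gene, with its 95% interval from limma; the open circle is Mstn, which did not pass the filter, and the grey square is the targeted gene Cited4. Among the 10 genes the intervals of Fbxo31 (-0.58 to -0.11) and Mstn (-0.41 to -0.01) do not reach 0, and no adjusted p passed.

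None of the 3 FoxO genes passed, and each had overlapping groups. Foxo1, the family member best known for control by insulin, had 6.63, 6.75, 6.57 and 6.83 in knockout hearts 1 to 4, and 6.74, 6.73, 6.67 and 6.57 in control hearts 1 to 4 (log2 signal). The ranges overlapped almost fully. The difference was 0.01 ± 0.08 (log2, SE; 95% interval -0.17 to 0.20; limma adjusted p = 0.965; exact permutation p = 0.857), and a second, dimmer Foxo1 probe set differed by 0.09 ± 0.12 (SE).

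Foxo3, which drives both ligase genes and autophagy genes in atrophying muscle, had 6.19, 6.26, 6.01 and 5.98 in knockout hearts 1 to 4, and 6.06, 6.24, 6.23 and 6.26 in control hearts 1 to 4 (log2 signal). Knockout hearts 3 and 4 lay below every control heart, and control heart 1 lay apart from the other 3 controls. The difference was -0.09 ± 0.09 (log2, SE; 95% interval -0.29 to 0.11; limma adjusted p = 0.724; exact permutation p = 0.257). It was -0.04 without knockout heart 4, -0.05 without knockout heart 3, -0.14 without knockout heart 2 and -0.14 without control heart 1.

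Foxo4, the X-linked family member, had 5.71, 5.85, 5.58 and 5.90 in knockout hearts 1 to 4, and 5.95, 5.96, 5.89 and 5.76 in control hearts 1 to 4 (log2 signal). Knockout hearts 1 and 3 lay below every control heart, and knockout heart 3 was the lowest heart, as it was for Fbxo32. The difference was -0.13 ± 0.09 (log2, SE; 95% interval -0.33 to 0.07; limma adjusted p = 0.597; exact permutation p = 0.2), and -0.07 without knockout heart 3.

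Mstn lay under the filter in every heart, so its values come from the fit with no filter. It had 2.30, 2.11, 2.27 and 2.09 in knockout hearts 1 to 4, and 2.46, 2.49, 2.43 and 2.24 in control hearts 1 to 4 (log2 signal). Knockout hearts 2 and 4 lay below every control, and knockout hearts 1 and 3 lay below 3 of the 4 controls. The difference was -0.21 ± 0.09 (log2, SE; 95% interval -0.41 to -0.01), with an unadjusted limma p of 0.0409, an adjusted p of 0.538 and an exact permutation p of 0.0857. At this signal, transcript and array background cannot be told apart. Of 14 markers of skeletal muscle, where Mstn is known to be highest, 7 were also under the filter, Myh1, Myh2 and Myh4 among them, and 5 of the 7 tested were higher in the knockout. The summed linear signal of all 14 was 792 to 1105 in knockout and 629 to 787 in control hearts, with no overlap. Acta1, skeletal alpha-actin, which the heart also expresses under load, had 9.46, 9.14, 9.17 and 9.72 in knockout hearts 1 to 4, and 8.96, 8.89, 8.56 and 9.10 in control hearts 1 to 4 (log2 signal), and made up most of that sum. The part of these markers in the Mstn values was not tested.

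**Figure D4:**
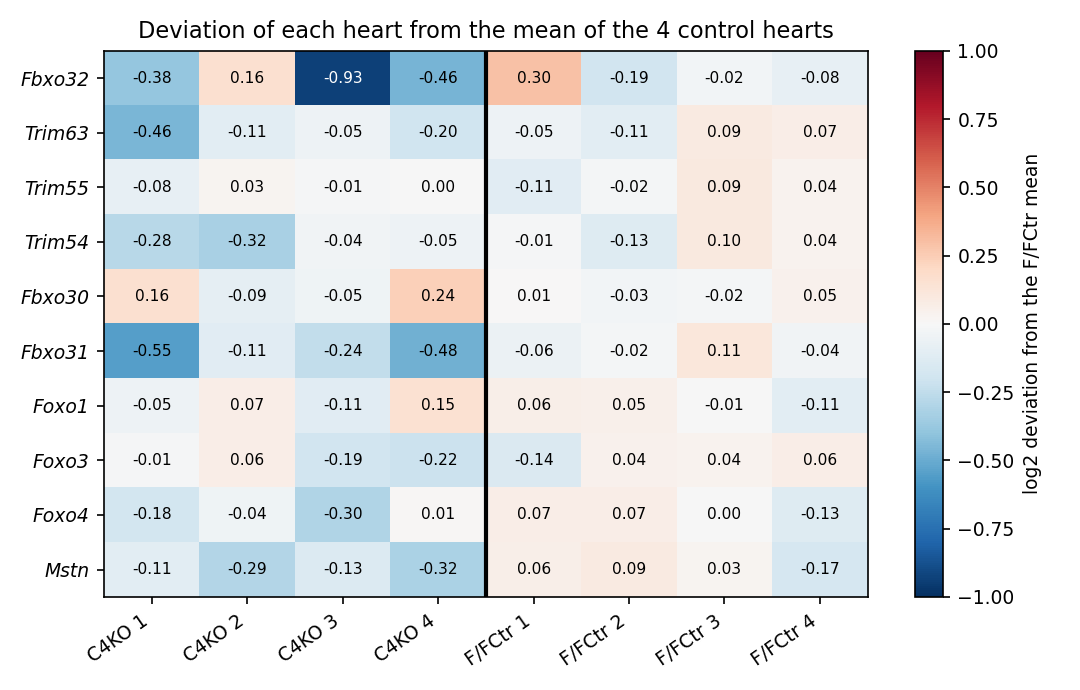
Deviation of each heart (columns, knockout hearts left of the black line and control hearts right of it) from the mean of the 4 control hearts for each gene (rows), in log2 units; blue is lower and red is higher. Knockout heart 3 holds the extreme value, -0.93 for Fbxo32, and the low values of Trim63 (-0.46) and Fbxo31 (-0.55) are in knockout heart 1.

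The hearts did not share one pattern over the 10 genes. Against the control mean, 9 of the 10 genes were lower in knockout heart 1, 6 in knockout heart 2, 10 in knockout heart 3 and 7 in knockout heart 4, and 4 to 6 were in each control heart. The low hearts differed by gene: heart 3 for Fbxo32 and Foxo4, heart 1 for Trim63 and Fbxo31, heart 2 for Trim54, and heart 4 for Foxo3 and Mstn.

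Whether FoxO and ligase signals moved together from heart to heart was examined in 7 relations over the 8 hearts, with p-values adjusted over the 7 by the Benjamini-Hochberg method. Fbxo32 and Trim63 had a Pearson r of 0.28 (exact permutation p = 0.485, adjusted p = 0.723) and a Spearman rho of 0.50 (exact permutation p = 0.216, adjusted p = 0.626). Leaving out knockout heart 3 and control heart 1, the hearts farthest from the Fbxo32 median, r was 0.63. Within groups, with the 2 group means taken out, it was -0.11 (exact permutation p = 0.844, adjusted p = 0.880).

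The relation with the highest Pearson r was that of Foxo4 and Fbxo32, and it did not pass. Its r was 0.71 (exact permutation p = 0.0464, adjusted p = 0.324), its rho 0.43 (exact permutation p = 0.299, adjusted p = 0.626), and its r within groups 0.59 (exact permutation p = 0.224, adjusted p = 0.880). Without knockout hearts 3 and 1, the farthest from the Foxo4 median, r was 0.03, so its size depended on those hearts. Leaving out the farthest hearts narrows the range of Foxo4, which can lower r by itself. Leaving out single hearts gave r from 0.34 to 0.83. The other 5 relations, of Foxo1 and Foxo3 with each ligase gene and of Foxo4 with Trim63, had r from -0.16 to 0.50, with exact permutation p from 0.206 to 0.723 and adjusted p from 0.720 to 0.723. Their rho ran from -0.31 to 0.55, with exact permutation p from 0.171 to 1 and adjusted p from 0.626 to 1. Leaving out the 2 farthest hearts gave r from -0.46 to 0.24 for these 5. Within groups, with the 2 group means taken out, their r ran from -0.23 to 0.49. Foxo3 and Fbxo32, the pair with r of 0.50 over all hearts, had opposite signs by group. Their r was 0.81 among the knockout hearts and -0.94 among the control hearts (n = 4 each). The control value leans on control heart 1, which had the lowest Foxo3 (6.06) and the highest Fbxo32 (8.75) of the controls. The opposite signs are therefore no more than a description of these few hearts.

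Genes with the most similar course over the 8 hearts were looked up among 15077 tested genes, as a description with no test. For Fbxo32 they were Zmym4 (r = 0.97), which encodes a zinc finger protein, the unnamed transcript E230016M11Rik (r = 0.97) and Akap9 (r = 0.97), which encodes a scaffold for protein kinase A. Zmym4 ranked the 8 hearts exactly as Fbxo32 did (rho = 1). For Trim63 they were Jmjd4 (r = 0.99), Mir1192 (r = 0.98) and Bbof1 (r = 0.97), and for Mstn they were Wdcp (r = 0.98), Nt5c1a (r = 0.93) and Hmga2-ps1 (r = 0.93). With 8 points and so many genes searched, high values of r arise readily. Mstn lay under the filter, where transcript and array background cannot be told apart, so its matches share that limit. E230016M11Rik (means of 3.74 in knockout and 4.06 in control hearts) and Hmga2-ps1 (4.05 and 4.23) lay near the filter of 3.80.

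Other ubiquitin ligases of striated muscle were lower for 18 of 25 genes, with a median of -0.11, beside 0.0038 for all genes. None passed (0 called with limma at an adjusted p of 0.05), and 6 were lower and 0 higher at an unadjusted p under 0.05, where 5.61% of all genes were lower and 5.64% higher. That count of 6 changed when single hearts were left out. It was 2 without knockout heart 1, 3 without knockout heart 4, 9 without knockout heart 2 and 5 without knockout heart 3. It was 4 without control heart 1 or 3, 3 without control heart 2 and 5 without control heart 4. A fit with fewer hearts has less power, and the shares of all genes given here are for all 8 hearts. Dependence on a heart and lost power therefore cannot be told apart from these counts. Fbxl22, which encodes a cardiac F-box protein of the Z-disc, had 6.46, 6.74, 6.72 and 6.42 in knockout hearts 1 to 4, and 6.90, 6.91, 7.02 and 6.95 in control hearts 1 to 4 (log2 signal). These groups did not overlap, and the difference was -0.36 ± 0.09 (log2, SE; limma adjusted p = 0.421).

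Asb15, of the ankyrin-repeat SOCS-box family of substrate receptors, had the widest difference of that list. Its signal was 6.46, 8.03, 7.92 and 6.97 in knockout hearts 1 to 4, and 8.01, 8.33, 8.35 and 8.29 in control hearts 1 to 4 (log2), a difference of -0.90 ± 0.30 (SE; limma adjusted p = 0.421). Knockout hearts 1 and 4 lay far below the other 6. For Cul3, the scaffold of cullin-3 ligases, the difference was -0.21 ± 0.08, and no knockout heart reached the control range. The genes with positive differences and the smallest p were Nedd4 (0.14 ± 0.11), Mdm2, the ligase of p53 (0.11 ± 0.08), and Trim32 (0.09 ± 0.10). Leaving out knockout hearts 1 and 4, 20 of the 25 were lower and the median was -0.08, as it was without knockout heart 4 alone.

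Conjugating enzymes, deubiquitinases and related genes were lower for 10 of 12 tested (median -0.05, 0 called). At an unadjusted limma p under 0.05, 1 was lower and 0 higher, where 5.61% of all genes were lower and 5.64% higher. Zfand5, which encodes a proteasome activator induced in muscle atrophy, differed by -0.25 ± 0.10, and Ube2b, a ubiquitin-conjugating enzyme gene, by -0.18 ± 0.09 (log2, SE). The groups did not overlap for Ube2b. Another 6 genes of the list were not analysed here. With knockout hearts 1 and 4 left out, 8 of the 12 were lower, with a median of -0.03. The median was -0.09 without control heart 3.

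Reported substrates and partners of MuRF proteins and atrogin-1 were lower for 10 of 17 genes and higher for 7 (median -0.05, 0 called). The arrays read the mRNA of these genes, whereas ligases act on the proteins, so these values do not measure ligase action. At an unadjusted p under 0.05, 5 were lower and 1 higher, where 5.61% of all genes were lower and 5.64% higher. None of the 17 was lower at that threshold without knockout heart 1 or without knockout heart 4. The count was 1 without control heart 2, 2 without control heart 4 and 3 without control heart 3. These smaller fits have less power, and the shares of all genes are for all 8 hearts. Ppara, which encodes a fatty acid sensor, differed by -0.38 ± 0.14 (log2, SE). Myh6 (-0.35 ± 0.13) and Myl2 (-0.36 ± 0.13) were lower, and Myh7, the slow fetal myosin, was higher (0.35 ± 0.16), with none past the threshold. Of the 5 lower at that unadjusted threshold, Myh6, the fast adult myosin, Myl2 and Ckm are also ventricular markers. Tnni3 and Mybpc3 are on both lists too. Among knockout hearts 2 and 3 alone, 11 of the 17 were lower than controls and the median was -0.04. The median was -0.0077 without control heart 1 and -0.12 without knockout heart 2.

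FoxO target genes other than the 10 genes above were lower for 16 of 27 and higher for 11 (median -0.05, 0 called). Some are on other lists too: Fbxo21 among the muscle ligases, Irs2 among the FoxO regulators and Klf15 among the ligase inducers. The counts of these lists are therefore not separate. At an unadjusted limma p under 0.05, 2 were lower and 2 higher, where 5.61% of all genes were lower and 5.64% higher. These counts are near those shares. Glul, which encodes glutamine synthetase, had 10.23, 10.06, 10.04 and 10.23 in knockout hearts 1 to 4, and 9.88, 9.74, 9.87 and 9.73 in control hearts 1 to 4 (log2 signal). Each knockout heart lay above each control heart, and the difference was 0.33 ± 0.08 (log2, SE; limma adjusted p = 0.421). Ddit4, an inhibitor of mTORC1, differed by 0.53 ± 0.20.

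In the other direction, Sesn1, a stress-induced regulator of mTORC1, had 7.88, 8.45, 8.55 and 8.12 in knockout hearts 1 to 4, and 8.61, 8.76, 8.62 and 8.58 in control hearts 1 to 4 (log2 signal). It did not overlap between the groups, and differed by -0.40 ± 0.14 (log2, SE; limma adjusted p = 0.421). Txnip, an inhibitor of thioredoxin and glucose uptake, differed by -0.39 ± 0.14. Targets of FoxO had differences of both signs. Without knockout hearts 1 and 4, 17 of the 27 were lower and the median was -0.04. The median was -0.03 without knockout heart 1 or without control heart 2, and -0.07 without control heart 3.

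**Figure D5:**
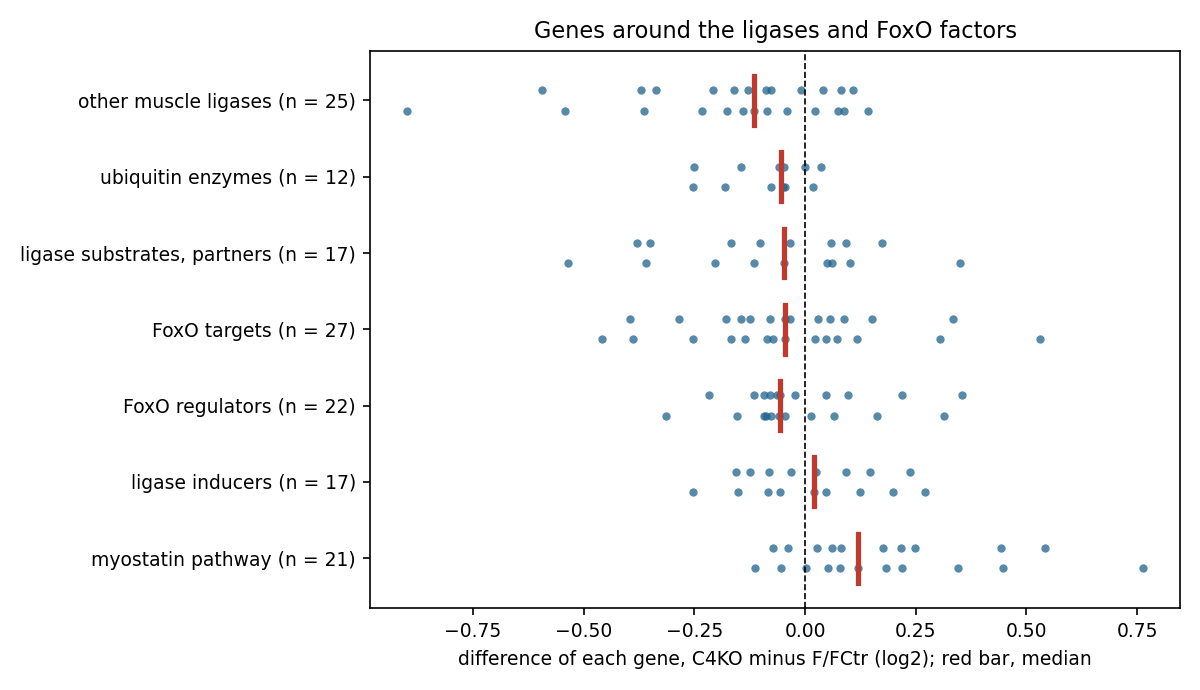
Difference of every tested gene (points, C4KO minus F/FCtr, log2; horizontal axis) in 7 lists of genes around the ligases and FoxO factors (rows, with the number tested), and each list's median (red bar). The medians run from -0.11 for other muscle ligases to 0.12 for the myostatin pathway.

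Regulators of FoxO activity were lower for 14 of 22 genes (median -0.06, 0 called). At an unadjusted limma p under 0.05, 0 were lower and 2 higher, where 5.61% of all genes were lower and 5.64% higher. The median was -0.03 without control heart 3 and -0.04 without knockout heart 1. Igf1, the growth factor that restrains FoxO through AKT, had 7.29, 7.04, 6.95 and 7.19 in knockout hearts 1 to 4, and 7.07, 6.73, 6.64 and 6.78 in control hearts 1 to 4 (log2 signal), a difference of 0.31 ± 0.11 (SE; limma adjusted p = 0.421). Control heart 1 reached into the knockout range. Ppp2ca, the catalytic subunit of protein phosphatase 2A, which removes AKT's phosphates from FoxO, differed by 0.35 ± 0.14 with no overlap. The receptor gene Insr differed by -0.22 ± 0.10 and the adaptor gene Irs1 by -0.31 ± 0.16. When knockout hearts 1 and 4 were left out, 12 of the 22 were lower, with a median of -0.03.

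Inducers of the ligase genes were split, with 9 of 17 higher and 8 lower (median 0.02, 0 called). At an unadjusted limma p under 0.05, 2 were higher and 0 lower, where 5.64% of all genes were higher and 5.61% lower. Cebpd, a transcription factor gene of inflammatory muscle loss, differed by 0.27 ± 0.11, and Tnfrsf12a, which encodes the TWEAK receptor, by 0.24 ± 0.09 (log2, SE). Nr3c1, the glucocorticoid receptor gene, differed by -0.16 ± 0.08 and Mef2a by -0.15 ± 0.09. The median was -0.05 without knockout heart 3, -0.01 without knockout heart 2, -0.03 without control heart 1, and 0.03 without knockout hearts 1 and 4, where 10 of the 17 were higher.

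Genes of the myostatin pathway were higher for 17 of 21 (median 0.12; 0 called), with 3 higher and 0 lower at an unadjusted p under 0.05, where 5.64% of all genes were higher and 5.61% lower. That count of 3 was 1 without control heart 2, and 5 without control heart 1 or without knockout heart 2. It was 6 without knockout heart 3, and 2 without knockout heart 4 or without control heart 3 or 4. Here too the smaller fits have less power, and the shares of all genes are for all 8 hearts. Inhba, which encodes the activin A subunit that shares myostatin's receptors, had 5.33, 4.86, 4.73 and 5.35 in knockout hearts 1 to 4, and 4.92, 3.96, 3.88 and 4.45 in control hearts 1 to 4 (log2 signal). Control heart 1 lay within the knockout range, and the difference was 0.76 ± 0.23 (log2, SE; limma adjusted p = 0.421). Genes of secreted inhibitors of these ligands had differences of both signs: 0.44 ± 0.16 for Fst (follistatin), 0.54 ± 0.24 for Fstl3 and -0.11 ± 0.09 for Wfikkn2 (log2, SE). The Wfikkn2 groups overlapped, and its difference leans on control heart 2 (4.48), as the other hearts lay between 4.11 and 4.20.

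Within that list, Fstl3 had 7.85, 6.70, 6.73 and 7.52 in knockout hearts 1 to 4, against 6.82, 6.48, 6.73 and 6.60 in control hearts 1 to 4 (log2 signal). Only knockout hearts 1 and 4 lay above the control range. Without them the pathway had 12 of 21 genes higher, a median of 0.04 and 1 gene higher at an unadjusted p under 0.05. The receptor gene Acvr2a (-0.07 ± 0.09) and Smad4, the shared SMAD (-0.05 ± 0.07), also had negative differences, with overlapping groups.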

How the data were processed

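Heart RNA carried a biotin label and was prepared as is standard for Affymetrix arrays, per the labels. The deposited table holds log2 values for 41345 probe sets on 8 arrays. RMA and limma stand in the submitters' processing notes with no version. RMA makes the arrays' distributions alike (medians 4.29 to 4.33), which would hide a change common to most genes. Arrays correlated at 0.979 to 0.988 and none were identical. No label gives probe positions, a build or batches.

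By the array annotation, 23521 probe sets had 1 symbol, 1814 had several and 16010 had none, and 23328 of those with 1 were matched to RefSeq symbols by Entrez identifier. Per gene the probe set with the highest mean was used. Genes reaching the 40th percentile of probe set means (3.80) were tested, knockout minus control, with limma 3.58.1 in R 4.3.3 (no trend, not robust, Benjamini-Hochberg over 15086 genes, threshold 0.05), a step tested on simulated data. Mstn was read from the fit of all 22180 genes. Single values also had an exact two-sided permutation test over 70 assignments. Lists were described by counts and medians, with no test.

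Alternatives were no filter, the 60th percentile, quantile normalization, a common median, the mean of probe sets, array weights, trend with robust estimation, a replicate block, a residual principal component, an unmoderated test, a threshold of 0.1 and leaving out each array. Leaving out knockout hearts 1 and 4 together was chosen after seeing the data. Named genes were the 10 members, Cited4, up to 3 genes per list and direction with the smallest p, and the 3 genes most like Fbxo32, Trim63 and Mstn. The members and lists were chosen with earlier results of these data known. Promoter windows came from RefSeq tables (GRCm38.p6), which matched 7 of the 10 members.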

Additional observations from a re-analysis of the deposited data

Results flagged for a closer look

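Foxo3 in control heart 1 (6.06, log2 signal) lay far from the other 3 control hearts, of which the nearest had 6.23. The gap was 0.864 of the group's whole range, above Dixon's critical value of 0.829 for 4 samples. It was the only one of 22 groups checked, those of the 10 genes and Cited4 in each genotype, and chance flags about 1 in 20 groups. Without that heart the Foxo3 difference was -0.14.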

How the results depend on the processing

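The count of members past the threshold was 0 under all 20 alternatives. The count of all genes past it was 0 under 19 and 355 with a covariate made from the residuals (their first principal component). There Cited4 passed (difference -0.91, limma adjusted p = 0.0134) and Fbxo31 did not (limma adjusted p = 0.0535). That covariate was taken from the scatter within groups of these same values, so it removes scatter by construction. Its higher count is therefore no separate support for a difference. The differences of Fbxo32 (-0.59 to -0.23), Trim63 (-0.26 to -0.08), Trim54 (-0.22 to -0.08), Fbxo31 (-0.43 to -0.18), Foxo3 (-0.14 to -0.04), Foxo4 (-0.18 to -0.07) and Mstn (-0.27 to -0.18) kept their sign under every alternative run. Leaving out single hearts turned the sign of Trim55 (-0.054 to 0.014) and Foxo1 (-0.033 to 0.054), and Fbxo30 ran from 0.007 to 0.12. Without knockout hearts 1 and 4 together the sign turned for Trim55 (0.0072), Fbxo30 (-0.069) and Foxo1 (-0.023). Among the relations, leaving out single hearts gave r from -0.23 to 0.40 for Foxo4 and Trim63, -0.044 to 0.72 for Foxo1 and Fbxo32, and -0.72 to 0.040 for Foxo1 and Trim63; the other 4 kept their sign. The median of the ligase inducers was 0.02, and turned to -0.03 with the 60th percentile filter and -0.01 with array weights.

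The genotypes share replicate numbers in the labels, but the deviations of same-numbered hearts correlated at 0.36, 0.0087, 0.28 and -0.03 over genes, so the numbers were not taken to pair the hearts. With the replicate block the differences were the same (-0.40 for Fbxo32, -0.35 for Fbxo31 and -0.20 for Trim63), with adjusted p-values of 0.385, 0.183 and 0.363, and 0 genes passed. Of the knockout hearts, 2 of 4 correlated best with the control of their own number.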

Other observations

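The upstream windows of the other members differed in base composition and motifs. The FoxO element GTAAACA, on either strand, was found in 1 of the 7 windows available, that of Trim63. The E-box CAGCTG was found in Trim63 and Trim54, and the TATA element TATAAA in Trim63 and Mstn, where it begins 31 and 29 bases before the start. GC boxes were found in Fbxo30 (4), Fbxo31 (4), Foxo1 (2) and Foxo3 (5). Overlapping matches were counted: in Fbxo30 those beginning 46, 42 and 38 bases before the start form 1 run of letters. The matches in the other windows do not overlap. The share of G and C was 80.4% in the Fbxo30 window and 38.4% in that of Mstn, beside a median of 52.4% over all windows. These are matches of letters, with no test, and the absence of a match says only that the letters are not in the window.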
